A study of Mus musculus with 16 samples.

Results

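Neurexins, neuroligins and C1q-domain synapse organizers were followed here as 9 genes: Nrxn2, Nrxn3, Nlgn1, Nlgn2, Nlgn3, C1ql2, C1ql3, Cbln2 and Cbln4. They were chosen by name from the 53801 genes of the count table, because C1ql3 was lower in the Trrap-deleted striatum and not in the cortex. RNA was sequenced from cortex and striatum of mice at postnatal day 10, on a C57BL6/J-129sv background. Control mice were Trrap Fl/+; Camk2-Cre tg and Trrap-FBΔ mice were Trrap Fl/Fl; Camk2-Cre tg, so that every animal carried the Cre and at least a single floxed Trrap allele, and the controls are Cre-positive heterozygotes rather than wild-type mice. The Cre line is named in the methods as Tg(Camk2a-cre/ERT2)2Gsc, a Camk2a-driven transgene of forebrain pyramidal neurons, and each library is whole tissue, cells outside that lineage included. The name is that of a tamoxifen-inducible Cre, and tamoxifen treatment of these mice is not given in the sources used here. There were 4 libraries in each of the 4 groups, from 9 mice, of which 7 gave both tissues. The study asked which transcriptional programmes of forebrain neurons change when Trrap, a cofactor of histone acetyltransferases, is deleted.

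Neurexins are presynaptic adhesion receptors, and neuroligins are postsynaptic partners that bind them across the cleft. Nlgn1 is known mainly from excitatory synapses, Nlgn2 from inhibitory synapses and Nlgn3 from both. C1ql and Cbln proteins are secreted and carry a C1q domain. Cerebellins link neurexins to postsynaptic receptors such as the delta glutamate receptor Grid1, and C1q-like proteins bind the adhesion receptor Adgrb3. In forebrain, C1ql3 is known from subsets of excitatory projection neurons and C1ql2 from the hippocampal mossy fibres.

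Library totals ran from 28743866 to 48761429 counted reads. Levels are given as CPM, the reads of a gene relative to the library total after TMM scaling over all 16 libraries, and the member with the fewest reads, C1ql2, had at least 65 reads in a library. The groups differed in sex: control cortex had 2 females and 2 males, control striatum 1 female and 3 males, and each Trrap-FBΔ group 3 females and 1 male. Trrap itself ranged from 136 to 173 CPM in control cortex and from 121 to 146 CPM in Trrap-FBΔ cortex, and from 140 to 151 and from 135 to 148 CPM in striatum. The groups overlapped for Trrap in both tissues (edgeR adjusted p = 0.0826 in cortex and 0.519 in striatum). These reads are counted over the whole gene and do not show whether the floxed exons were removed. The study itself reports efficient Trrap deletion in P10 Trrap-FBΔ brains, and refers to western blots of forebrain and qPCR of cortex and striatum.

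The tissue labels were checked against marker genes. All 8 markers of cortical excitatory neurons were lower in the libraries labelled striatum, where their summed level was 262 to 593 CPM against 1561 to 1966 CPM in cortex. Of 8 markers of striatal projection neurons, however, only Drd2, Penk and Tac1 were higher in striatum (edgeR, adjusted p under 0.05). Ppp1r1b, which encodes DARPP-32, did not separate the tissues, with a striatum-over-cortex log2 difference of 0.005 ± 0.39 (SE). It stood at 19.4, 97.5, 300 and 89.0 CPM in the control striata of mice 58, 63, 64 and 65, and at 51.8, 178, 185 and 58.5 CPM in the control cortices of mice 55, 58, 63 and 64. The other lists, added after the data had been seen, hold genes of the thalamus and of the hypothalamus. The 6 thalamus genes summed to 445 to 707 CPM in striatum and 144 to 193 CPM in cortex, and the 5 hypothalamus genes to 62.2 to 99.1 CPM in striatum and 1.12 to 3.66 CPM in cortex. Pmch, a peptide precursor of lateral hypothalamic neurons, was at 45.3 to 72.0 CPM in the striatum libraries and at most 1.21 CPM in cortex. The word striatum below is therefore the label of these libraries and not a statement on which nuclei they held.

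**Figure D1:**
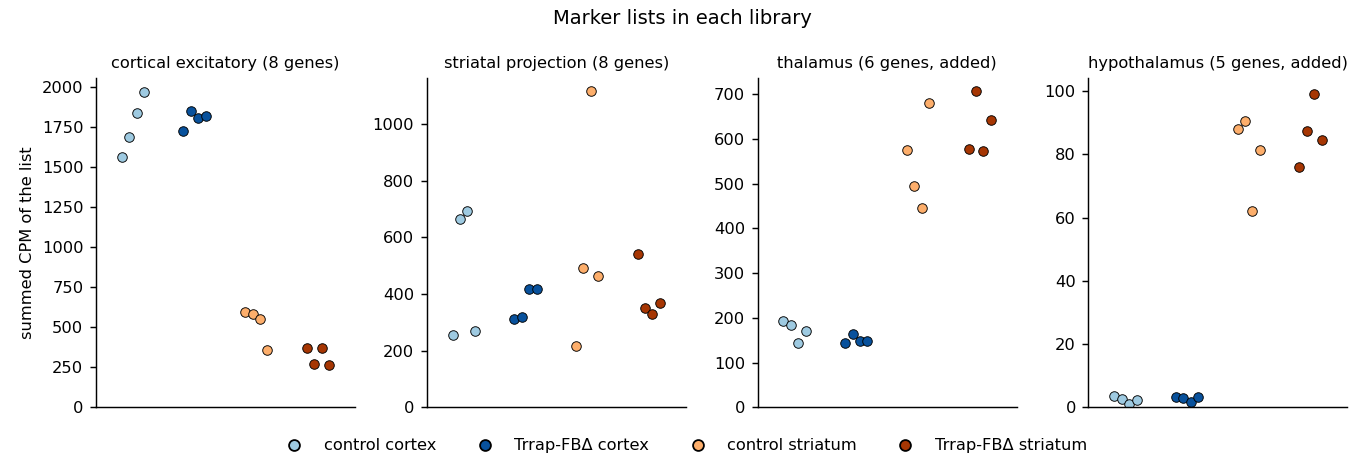
Summed CPM of 4 marker lists in each library, by group (points are libraries, 4 per group). Striatal projection neuron genes span 217 to 1117 CPM in control striatum and overlap between tissues, whereas thalamus and hypothalamus genes are higher in every striatum library than in every cortex library.

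The study examined promoters for Sp1, a factor that binds GC boxes, so the 250 bases upstream of each RefSeq start (GRCm38.p6) were searched for GGGCGG on both strands. Of 32851 such windows over all genes, 32.7% held a match. Among the members, 6 of 9 had an entry, and Nrxn2, Nlgn3 and Cbln2 were not matched. Nlgn2 had 3 matches, C1ql3 had 2 and Cbln4 had 2 that overlap, whereas C1ql2, Nrxn3 with 3 windows and Nlgn1 with 2 windows had 0. The window of C1ql3 lies inside an annotated exon and is not printed. The windows of Nlgn2, Cbln4 and C1ql2 are shown, on the strand of the gene from 5′ to 3′ with GC boxes in capitals, since they span the range from 3 matches to 0 and include the pair of secreted organizers with the largest tissue differences below.
Nlgn2, chr11:69837785-69838034, minus strand: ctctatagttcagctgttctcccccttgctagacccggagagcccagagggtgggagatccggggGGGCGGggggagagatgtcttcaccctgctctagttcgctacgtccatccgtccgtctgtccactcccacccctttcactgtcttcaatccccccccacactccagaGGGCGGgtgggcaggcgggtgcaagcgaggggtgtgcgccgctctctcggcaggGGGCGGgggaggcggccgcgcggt
Cbln4, chr2:172043467-172043716, minus strand: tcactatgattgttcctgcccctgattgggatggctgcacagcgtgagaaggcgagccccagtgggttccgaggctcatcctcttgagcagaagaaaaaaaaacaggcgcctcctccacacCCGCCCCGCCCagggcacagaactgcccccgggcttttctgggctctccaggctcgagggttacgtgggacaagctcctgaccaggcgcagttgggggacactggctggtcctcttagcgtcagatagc
C1ql2, chr1:120340332-120340581, plus strand: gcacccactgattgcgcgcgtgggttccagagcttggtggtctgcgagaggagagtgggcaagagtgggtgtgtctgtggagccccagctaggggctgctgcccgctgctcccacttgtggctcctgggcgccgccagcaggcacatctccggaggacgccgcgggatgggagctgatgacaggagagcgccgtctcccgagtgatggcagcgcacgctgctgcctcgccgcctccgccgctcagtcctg
A match describes letters in this window and is not evidence of binding, and no match says only that these letters are absent from it.

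C1ql3 (ENSMUSG00000049630, chr2:13003457-13011806, minus strand, GRCm38) was the member whose genotype effect differed most between the tissues. In control striatum it stood at 49.2, 43.4, 37.9 and 40.1 CPM in mice 58, 63, 64 and 65. In Trrap-FBΔ striatum it stood at 23.5, 23.7, 29.7 and 22.9 CPM in mice 57, 59, 60 and 61. Every deleted striatum was thus below every control striatum, with mouse 60 the highest of the deleted group. In control cortex the values were 43.3, 42.6, 49.4 and 57.01 CPM in mice 55, 58, 63 and 64, and in Trrap-FBΔ cortex 52.2, 53.9, 51.6 and 52.4 CPM. The cortical groups overlapped, and the deleted cortices lay within the range of the controls. The log2 fold change was -0.77 ± 0.10 (SE) in striatum, where the level fell by 41.4%, and 0.13 ± 0.081 in cortex, so that the effects differed by -0.90 ± 0.14. These values chose the gene and are given as a description, with no p. Without control striatum mice 58 and 64, which had the lowest and the highest summed striatal projection neuron markers, the striatal log2 fold change was -0.74 ± 0.11. With sex as a covariate it was -0.70.

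By group mean, C1ql3 was highest in Trrap-FBΔ cortex at 52.5 ± 1.01 CPM (SD, n = 4), followed by control cortex at 48.1 ± 6.70, control striatum at 42.6 ± 4.92 and Trrap-FBΔ striatum at 25.0 ± 3.21. Only the last step in this order separated the groups, since the ranges of the first 3 overlapped in turn. Within mice, the deleted striatum was below the cortex of the same animal by log2 differences of -0.79 to -1.19 in 4 of 4 mice. The 3 controls with both tissues had differences of 0.21, -0.19 and -0.59.

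**Figure D2:**
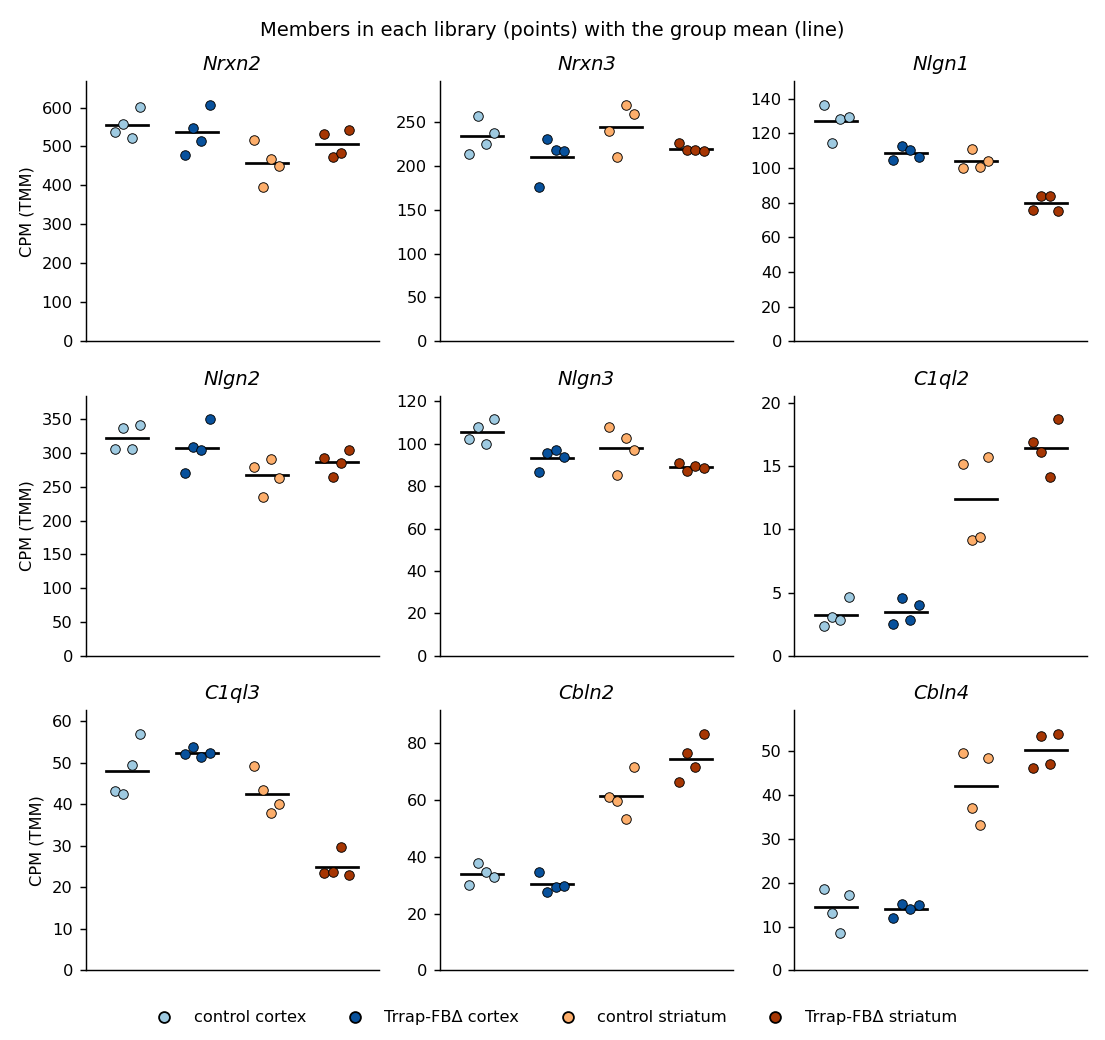
CPM of each member in every library (points) with the group mean (line), 4 libraries per group. C1ql3 at 22.9 to 29.7 CPM in Trrap-FBΔ striatum lies apart from its other groups, Nlgn1 is lower after deletion in both tissues, and C1ql2, Cbln2 and Cbln4 are higher in all striatum libraries than in all cortex libraries.

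Markers of cortical excitatory neurons moved with C1ql3 in striatum. Their summed level was 356 to 593 CPM in control and 262 to 373 CPM in Trrap-FBΔ striatum, and no marker was at 0. In the edgeR test, 5 of 8 were lower: Slc17a7, a vesicular glutamate transporter, by a log2 fold change of -0.88 (adjusted p = 0.0113), and the transcription factors Neurod6 by -1.14 (adjusted p = 0.0227), Neurod2 by -0.61 (0.0222), Tbr1 by -0.67 (0.0394) and Fezf2 by -1.22 (0.00748). Emx1 at -0.76 and Cux2 at 0.18 did not pass the test. In cortex 1 of the 8 passed and was lower, and the sums were 1561 to 1966 CPM in control and 1724 to 1851 CPM in Trrap-FBΔ. Without control striatum mice 58 and 64, Fezf2 at -1.23 was the only marker of the list still called lower and Cux2 at 0.31 was called higher. The fold changes of Slc17a7 at -0.70, Neurod6 at -1.30 and Neurod2 at -0.59 remained of similar size with 2 control libraries against 4, with adjusted p of 0.0896, 0.0528 and 0.0937 in edgeR, and Tbr1 was at -0.37 with an edgeR adjusted p of 0.281. Control striatum mouse 65 had a sum of 356 CPM, below the 367 and 373 CPM of Trrap-FBΔ striatum mice 57 and 60, and C1ql3 was at 40.1 CPM in the first and at 23.5 and 29.7 CPM in the others. The part of these markers in the C1ql3 difference was not tested, and in bulk tissue fewer cells of a type and less RNA per cell cannot be told apart.

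**Figure D3:**
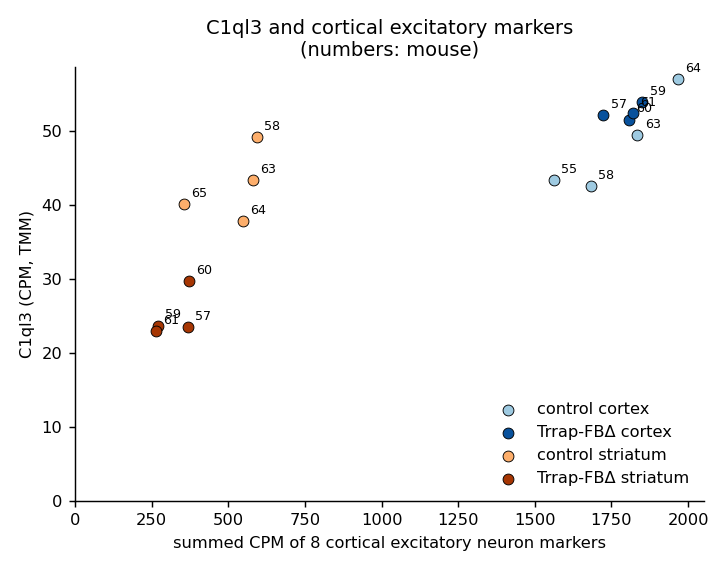
C1ql3 (CPM) against the summed CPM of 8 cortical excitatory neuron markers in the 16 libraries, with the number of the mouse beside each point. The marker sums of control and Trrap-FBΔ striatum overlap through a single control library, that of mouse 65. The part of these markers in the C1ql3 difference was not tested.

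The genes whose log2 CPM followed C1ql3 most closely over the 16 libraries, among 19437 compared, included Sertm1 (Pearson r 0.967), Tspan13 (0.946), Sv2b (0.937) and Mtfp1 (0.933). Sertm1 had group means of 52.2 and 51.4 CPM in control and Trrap-FBΔ cortex and of 45.3 and 27.95 CPM in control and Trrap-FBΔ striatum. Sv2b, a synaptic vesicle glycoprotein, was at 237 CPM in control and 137 CPM in Trrap-FBΔ striatum. This likeness is a description over libraries that share tissue, genotype and mouse.

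Across the other members, the genotype differences were smaller. In cortex 2 of 9 members, Nlgn1 and Nlgn3, passed an adjusted p under 0.05 in edgeR, both lower, where 33.3% of 18268 genes passed and 17.6% were lower. In striatum 3 of 9 passed, with Nlgn1 and C1ql3 lower and Cbln2 higher, where 30.2% of 18872 genes passed. For the difference between the tissues, 1 member was past the threshold, C1ql3, for which the set was chosen. The same threshold was passed by 0.437% of 19438 genes (85 genes), 0.242% in the negative direction, and by 219 genes with the mouse as a replicate block. Since these 3 contrasts chose the set, the place of C1ql3 past a threshold is fixed by the choice, and nothing is read from any of these counts. The median log2 fold change of the members was -0.07 in cortex and 0.10 in striatum, and that of all genes tested 0.001 and -0.006.

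Nlgn1 (chr3:25426215-26332460, minus strand) was the neuroligin with the largest difference. It stood at 137, 115, 128 and 130 CPM in control cortex and at 105, 113, 111 and 106 CPM in Trrap-FBΔ cortex. In striatum it stood at 100.2, 111, 100.3 and 104 CPM in controls and at 75.9, 83.6, 83.8 and 75.3 CPM in Trrap-FBΔ mice. The groups did not overlap in either tissue, which held for 32.7% of all genes in cortex, 16.7% in the lower direction, and for 31.6% in striatum, 16% in the lower direction. The log2 fold changes were -0.23 ± 0.056 in cortex and -0.38 ± 0.055 in striatum.

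Nlgn3 (chrX:101299168-101325963, plus strand) shares exon sequence on its own strand with Gm21986, so its counts are uncertain. It was at 99.7 to 111 CPM in control and 86.9 to 97.2 CPM in Trrap-FBΔ cortex, without overlap, and at 85.2 to 108 and 87.0 to 90.9 CPM in striatum, with overlap. The log2 fold changes were -0.18 ± 0.050 and -0.14 ± 0.066, and the striatal value was -0.03 without control mice 58 and 64. Nlgn2 (chr11:69823122-69837784, minus strand) showed overlap in both tissues, with log2 fold changes of -0.07 ± 0.074 in cortex and 0.10 ± 0.073 in striatum.

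Of the neurexins, Nrxn2 (chr19:6418731-6544169, plus strand) was at 522 to 601 CPM in control and 478 to 607 CPM in Trrap-FBΔ cortex, and at 396 to 517 and 474 to 541 CPM in striatum. Nrxn3 (chr12:88722876-90334935, plus strand) was at 214 to 257 and 176 to 231 CPM in cortex and at 210 to 270 and 217 to 226 CPM in striatum. Both overlapped between genotypes in both tissues. The log2 fold changes were -0.05 ± 0.076 and 0.15 ± 0.083 for Nrxn2, and -0.15 ± 0.081 and -0.15 ± 0.072 for Nrxn3. Reads were summed over the gene, so alpha and beta forms, which start from separate promoters, were not resolved. Nrxn2 and Nlgn2 varied together within tissues, with Pearson r of 0.960 over the 8 cortex and 0.896 over the 8 striatum libraries, as a description over libraries of both genotypes.

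Among the secreted organizers, those other than C1ql3 had higher means after deletion in striatum. C1ql2 (chr1:120340582-120343174, plus strand) was at 15.1, 9.15, 9.39 and 15.7 CPM in control and at 16.9, 16.1, 14.1 and 18.7 CPM in Trrap-FBΔ striatum. Cbln4 (chr2:172036233-172043466, minus strand) was at 49.6, 37.0, 33.2 and 48.5 CPM in control and at 46.2, 53.5, 47.1 and 53.9 CPM in Trrap-FBΔ striatum. Cbln2 (chr18:86711110-86718283, plus strand) was at 60.9, 59.5, 53.2 and 71.7 CPM in control and at 66.2, 76.4, 71.4 and 83.1 CPM in Trrap-FBΔ striatum. The groups overlapped for each of these 3 genes, and for C1ql2 and Cbln4 the controls divided into mice 58 and 65, near the deleted animals, and mice 63 and 64, below them. The striatal log2 fold changes were 0.42 ± 0.18, 0.26 ± 0.12 and 0.28 ± 0.093 for C1ql2, Cbln4 and Cbln2, and the cortical ones 0.09 ± 0.23, -0.04 ± 0.19 and -0.16 ± 0.083. Summed thalamus genes were at 575 and 681 CPM in control striatum mice 58 and 65, at 494 and 445 CPM in mice 63 and 64, and at 573 to 707 CPM in Trrap-FBΔ striatum, where 3 of the 6 were higher and 1 was lower. In cortex 2 of the 6 thalamus genes were lower and 0 higher (edgeR). Oligodendrocyte marker sums divided the control striata too. They were 9336 and 6927 CPM in mice 58 and 65, and 3146 and 4381 CPM in mice 63 and 64. In Trrap-FBΔ striatum these sums were 3925 to 6883 CPM. The part of either list in the differences of C1ql2, Cbln2 and Cbln4 was not tested.

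Other cell type markers also moved with genotype, and their part in the values above was not tested. Of 6 microglia markers, 6 were lower in cortex and 5 in striatum, with sums of 256 to 289 CPM in control and 182 to 231 CPM in Trrap-FBΔ cortex and of 205 to 250 and 163 to 179 CPM in striatum. All 6 oligodendrocyte and all 5 endothelial markers were lower in cortex, against 0 and 1 in striatum. For the difference between the tissues, 0 markers of either list passed (edgeR). Oligodendrocyte sums were 1763 to 3121 CPM in control and 1294 to 2000 CPM in Trrap-FBΔ cortex, and 3146 to 9336 and 3925 to 6883 CPM in striatum. The highest control cortices were those of mice 58 and 63, at 3121 and 2886 CPM. Of 4 claustrum and layer 6b markers, 3 were lower and 1 higher in cortex, and 2 were lower and 1 higher in striatum. Of 6 astrocyte markers, 2 were higher and 2 lower in cortex, and 2 were higher and 1 lower in striatum. Of 5 interneuron markers, Sst was higher in cortex and Pvalb lower in striatum. No blood, choroid plexus or striatal projection neuron marker passed in either tissue (edgeR).

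The tissue effect, averaged over the genotypes in a fit of all 16 libraries, did not choose the members and was tested. This fit treats the libraries as independent, although 7 of the 9 mice gave both tissues. C1ql2, Cbln2 and Cbln4 were higher in striatum than in cortex in 8 against 8 libraries without overlap, which held for 9.74% of all genes, with 9.93% apart in the other direction and 19.7% in either. C1ql2 was at 3.36 ± 0.913 CPM (SD, n = 8) in cortex and 14.4 ± 3.43 CPM in striatum, a log2 difference of 2.08 ± 0.16 (SE; edgeR quasi-likelihood adjusted p = 5.13e-09). Cbln4 was at 14.2 ± 3.17 and 46.1 ± 7.42 CPM, a log2 difference of 1.70 ± 0.13 (edgeR adjusted p = 4.99e-09). Cbln2 was at 32.0 ± 3.43 and 67.8 ± 9.78 CPM, a log2 difference of 1.08 ± 0.068 (edgeR adjusted p = 4.58e-10). With the mouse as a replicate block, the edgeR adjusted p was 8.79e-07 for C1ql2, 4.1e-07 for Cbln4 and 2.26e-07 for Cbln2. The striatum libraries also carried thalamus and hypothalamus genes, whose part in the difference was not tested.

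Nlgn1, Nlgn2 and Nrxn2 were lower in striatum. Nlgn1 differed by -0.37 ± 0.040 on the log2 scale (edgeR adjusted p = 3.44e-07), Nlgn2 by -0.19 ± 0.055 (edgeR adjusted p = 0.00725) and Nrxn2 by -0.18 ± 0.059 (edgeR adjusted p = 0.0149). Their libraries overlapped between tissues. With the mouse as a replicate block, the edgeR adjusted p was 5.01e-06 for Nlgn1, 0.00312 for Nlgn2 and 0.0102 for Nrxn2. With upper-quartile scaling the edgeR adjusted p of Nrxn2 was 0.0774, the highest of its alternatives, of which the lowest was 0.00392. Nrxn3, at 222 ± 23.2 CPM in cortex and 232 ± 21.9 CPM in striatum, and Nlgn3, at 99.4 ± 7.90 and 93.6 ± 8.07 CPM, did not pass, with adjusted p of 0.371 and 0.0939 in edgeR. The adjusted p of Nlgn3 ran from 0.0087 to 0.6 over its alternatives and was lowest without control striatum mice 58 and 64. For comparison, 60.5% of 19438 genes differed between the tissues, with 30.9% higher and 29.6% lower in striatum. C1ql3 is left without a test here, since its average of -0.62 combined -0.17 in controls with -1.08 in Trrap-FBΔ mice.

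**Figure D4:**
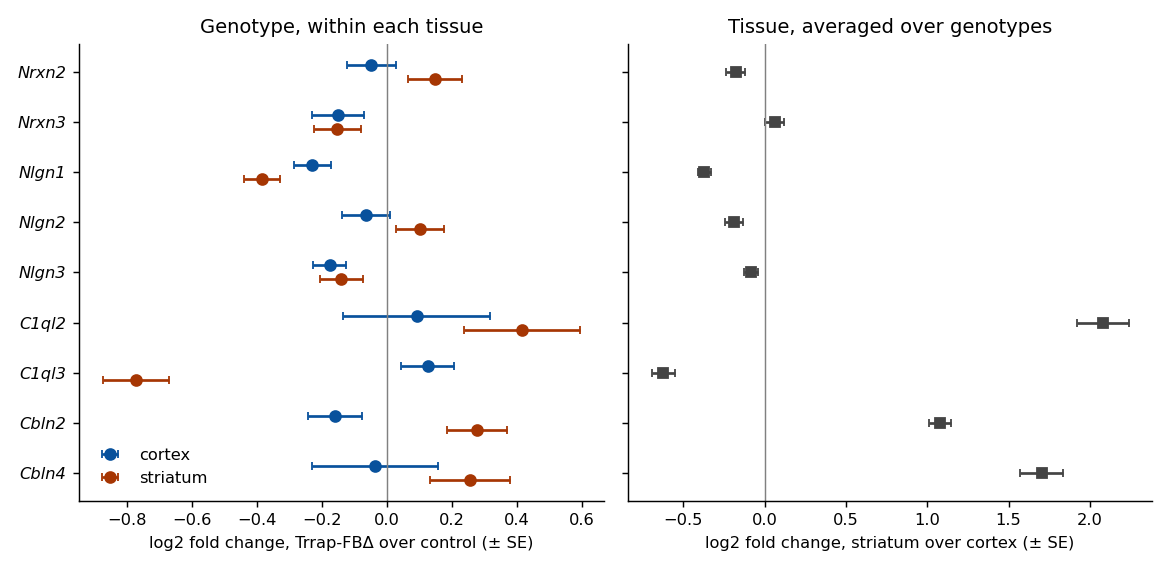
Log2 fold changes of the members with their standard errors, for Trrap-FBΔ over control within each tissue (left; 4 against 4 libraries) and for striatum over cortex averaged over genotypes (right; 8 against 8 libraries). C1ql3 at -0.77 in striatum has the largest genotype difference, and C1ql2 at 2.08 the largest tissue difference.

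Per kilobase of exon, Nlgn2 and Nrxn2 had the highest levels in every group, at 55.7 ± 3.39 and 40.2 ± 2.505 CPM per kb in control cortex. C1ql3 and Nrxn3 followed there with 19.0 ± 2.64 and 18.5 ± 1.48 CPM per kb, which do not differ beyond their spread. In control striatum Cbln2 took the next place after Nrxn2, at 21.2 ± 2.65 CPM per kb, ahead of Nrxn3 at 19.4 ± 2.09 and C1ql3 at 16.8 ± 1.94, again within their spread. In Trrap-FBΔ striatum C1ql3 was at 9.85 ± 1.26 CPM per kb, close to Nlgn3 at 9.60 ± 0.178 and C1ql2 at 8.22 ± 0.943, and below Cbln4 at 17.3 ± 1.42. C1ql2 was the lowest member in both cortical groups, at 1.62 ± 0.486 and 1.74 ± 0.490 CPM per kb.

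Related synapse-organizer genes were taken as 47 genes in 5 lists, and not all of them are partners of the members. In cortex 15 of the 46 tested were lower and 2 higher, 37.0% in all with 32.6% lower, and in striatum 13 of 47 were lower and 1 higher, 29.8% in all with 27.7% lower. Of all genes, 33.3% passed in cortex, with 17.6% lower and 15.7% higher. In striatum 30.2% of all genes passed, with 15.8% lower and 14.4% higher. The median log2 fold change of the related genes was -0.11 in each tissue. The cortical count of lower genes rested in part on single libraries and was 7 without control mouse 64, 7 without Trrap-FBΔ mouse 60 and 9 without Trrap-FBΔ mouse 57. For the difference between the tissues, 0 related genes passed in edgeR and 0 in DESeq2, 14 had an unadjusted p under 0.05, and 1, Il1rapl1, passed with the mouse as a replicate block (log2 difference -0.37, edgeR adjusted p = 0.0464, against 0.15 without the block).

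Among the other C1q-domain genes, Cbln3, a cerebellin of low level here, was higher in both, at 1.14 to 1.58 CPM in control and 1.79 to 2.12 CPM in Trrap-FBΔ cortex and at 1.004 to 2.24 and 2.39 to 3.36 CPM in striatum (edgeR adjusted p = 0.0219 and 0.00916). Its cortical call was lost in 4 of 15 alternatives, and its striatal call held in all 16. Cbln1 was lower in cortex, at 32.2 to 37.8 CPM in control and 23.6 to 28.4 CPM in Trrap-FBΔ mice (log2 fold change -0.36, edgeR adjusted p = 0.0035), and not called in striatum, where it was at 40.2 to 65.3 and 50.5 to 66.4 CPM. The difference of its effects between the tissues had an adjusted p of 0.228 in edgeR.

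Of 7 receptors of the C1q-like proteins and cerebellins, 1 was called in each tissue, or 14.3%. Of all genes, 33.3% were called in cortex and 30.2% in striatum. Grik2, a kainate receptor subunit, was higher in cortex at 0.17 ± 0.049 (edgeR adjusted p = 0.0188). This call was lost in 3 of 15 alternatives. Adgrb3, named after its value was seen because it is the receptor of C1q-like proteins, was the only member of that list called in striatum. It was at 129 to 138 CPM in control and 109 to 113 CPM in Trrap-FBΔ striatum, a log2 fold change of -0.26 ± 0.040 (edgeR adjusted p = 0.00133), and at 171 to 189 and 161 to 182 CPM in cortex, where the groups overlapped. The difference between its effects in the tissues had an adjusted p of 0.215. Grid1 was not called in either tissue, at log2 fold changes of -0.13 in cortex and -0.05 in striatum.

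Of 15 other neurexin ligands, 4 were lower and 0 higher in each tissue, 26.7% of the list beside 17.6% of all genes lower in cortex and 15.8% in striatum. Lrrtm2, a postsynaptic leucine-rich repeat partner of neurexins, was lower by -0.30 ± 0.079 in cortex and -0.56 ± 0.079 in striatum (edgeR adjusted p = 0.0134 and 0.000878). Lrrtm4, its relative, was lower by -0.25 and -0.32 (edgeR adjusted p = 0.00225 and 0.0021). Nxph2, a secreted neurexophilin, was at 2.93 to 4.21 CPM in control and 1.34 to 2.27 CPM in Trrap-FBΔ striatum, a log2 fold change of -0.91 ± 0.18 (edgeR adjusted p = 0.00469), and differed by -0.30 in cortex (edgeR adjusted p = 0.0289), a cortical call lost in 8 of 15 alternatives. Of 8 neuroligin regulators and scaffolds, Cask and Magi2 were lower in both tissues, Cask by -0.27 and -0.17 and Magi2 by -0.25 and -0.23, with edgeR adjusted p of 0.000694 and 0.0446 for Cask and 0.00486 and 0.0091 for Magi2. The striatal call of Cask was lost in 11 of 16 alternatives, and that of Magi2 in 2, with sex as a covariate and without control mice 58 and 64. Dlg4, Gphn and Shank3, scaffolds of the excitatory and inhibitory postsynapse, were not called.

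Receptor tyrosine phosphatase organizers and their ligands held 7 lower genes of 12 in cortex and 5 in striatum, 58.3% and 41.7% of the list, beside 17.6% and 15.8% of all genes. Slitrk4, a postsynaptic ligand of these phosphatases, was at 56.2, 51.6, 58.5 and 57.8 CPM in control and 35.8, 39.1, 36.6 and 35.6 CPM in Trrap-FBΔ cortex. In striatum Slitrk4 was at 52.3, 63.97, 57.2 and 62.2 CPM in control and 34.6, 39.4, 37.2 and 35.3 CPM in Trrap-FBΔ mice. The groups lay far apart in both tissues, with log2 fold changes of -0.61 ± 0.056 and -0.69 ± 0.071 (edgeR adjusted p = 3.37e-05 and 0.00021). Slitrk2, Slitrk3 and Slitrk5 were lower too, by -0.21, -0.19 and -0.14 in cortex and by -0.46, -0.43 and -0.26 in striatum. Their cortical calls were lost in 5, 5 and 9 of 15 alternatives, that of Slitrk3 also with sex as a covariate, and their striatal calls held in all 16. Slitrk6 was lower in cortex, by -0.69 ± 0.20 (edgeR adjusted p = 0.0179), and not called in striatum, at -0.16. Its cortical call was lost in 3 of 15 alternatives.

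**Figure D5:**
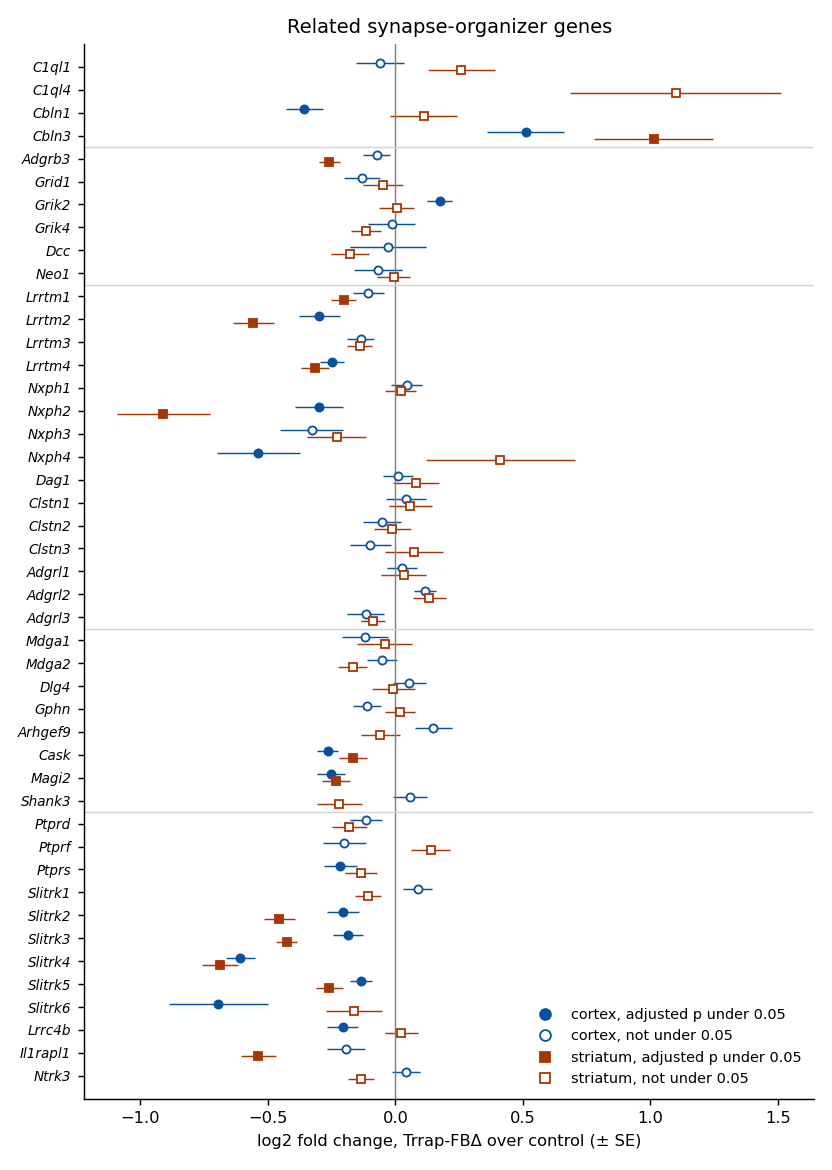
Log2 fold changes (Trrap-FBΔ over control, ± SE) of related genes in cortex (circles) and striatum (squares), filled where the edgeR adjusted p was under 0.05. Grey lines divide the 5 lists, from other C1q-domain genes at the top to phosphatase organizers at the bottom, and Slitrk4 at -0.61 and -0.69 is low in both tissues.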

How the data were processed

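RNA of cortex and striatum from P10 mice was prepared by the authors with a stranded polyA kit and sequenced with 51 single-end cycles on an Illumina HiSeq2500. Reads were written with bcl2fastq 1.8.4, aligned with STAR 2.5.4b to GRCm38 and counted per Ensembl gene with featureCounts 1.5.0, uniquely mapped and strand-specific, and the authors deposited these raw counts. Antisense genes are therefore separate, whereas reads of genes that overlap on the same strand are not.

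Of the 53801 identifiers, 53620 had a symbol. Groups came from the labels. Totals were 28743866 to 48761429 counts. The edgeR 4.0.16 quasi-likelihood test (R 4.3.3, filterByExpr, TMM, Benjamini-Hochberg, threshold 0.05) was run over all genes within each tissue, and over all 16 libraries for the tissue effect and the difference between tissues. CPM per kb used union exon lengths of GENCODE vM21, while the authors counted on Ensembl 92. The fits were also run on simulated counts drawn independently for each library. Shared mice were not simulated, so these runs do not bear on the pairing of tissues.

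The members and lists were chosen with earlier results of these data known. Related genes were named if called in both tissues, called for the difference between tissues, or among the 3 largest rises or falls per tissue with groups that do not overlap. Adgrb3 and Il1rapl1 were named after their values were seen. Some genes covered by this rule are counted and not reported here by name. The thalamus and hypothalamus lists and the fit without control striatum mice 58 and 64 were added after seeing the data. Alternatives were upper-quartile and RLE scaling, no filter, at least 10 counts per library, DESeq2 1.42.0, sex as a covariate, all libraries in a joint fit, the mouse as a replicate block and each library left out.

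Libraries with the same number came from the same animal per the labels. Their deviations from the group means correlated at 0.121 to 0.365 (median 0.239) in the 7 mice with both tissues. For different mice of the same genotype the values were -0.265 to 0.13 (median -0.0853), so the ranges overlapped. Since deviations cancel within a group, part of this contrast is built in.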

Additional observations from a re-analysis of the deposited data

Results flagged for a closer look

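Over the members and named related genes, 92 groups of 4 libraries were screened for a library that lies far from the other 3 (Dixon's ratio), and 8 were found, 8.7%, where chance gives about 1 in 20. C1ql3 in Trrap-FBΔ striatum mouse 60 was at 29.7 CPM against 22.9 to 23.7 CPM in the other 3. Nrxn3 in Trrap-FBΔ striatum mouse 57 was at 226 CPM against 217 to 218 CPM, a narrow group. Cbln1 in Trrap-FBΔ cortex mouse 59 was at 23.6 CPM against 27.9 to 28.4 CPM. Lrrtm2 in control cortex mouse 63 was at 132 CPM against 104 to 108 CPM. Lrrtm4 in control striatum mouse 58 was at 39.2 CPM against 42.9 to 43.5 CPM. Slitrk2 in control striatum mouse 64 was at 37.9 CPM against 41.7 to 42.4 CPM. Slitrk3 in Trrap-FBΔ striatum mouse 57 was at 60 CPM against 56.8 to 57.1 CPM. Slitrk5 in control cortex mouse 58 was at 87.3 CPM against 95.2 to 96.6 CPM.

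The genotype effect on C1ql3 differed between striatum and cortex by -0.90 on the log2 scale. This difference chose the gene and is a description, given with no p.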

How the results depend on the processing

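The C1ql3 log2 fold change was -0.77 ± 0.10 (SE) in striatum, 0.13 ± 0.081 in cortex and -0.90 ± 0.14 for the difference. Over the libraries left out singly it was -0.87 to -0.70, 0.07 to 0.22 and -0.99 to -0.81. Over the other settings it was -0.77 to -0.70, 0.13 to 0.14 and -0.90 to -0.86. These ranges describe values that chose the gene and are not a test of them. The number of genes whose effect differed between the tissues, 85, was the least stable: 195 with no filter, 430 in DESeq2, 27 without control striatum mice 58 and 64, and 219 with the mouse as a replicate block, which also called 1 related gene. It was 18 to 151 with a library left out: 18, 22 and 46 without Trrap-FBΔ striatum mice 61, 59 and 57, 24, 26 and 42 without Trrap-FBΔ cortex mice 60, 59 and 57, 30 and 48 without control cortex mice 58 and 55, and 55 and 151 without control striatum mice 63 and 65. Without control striatum mice 58 and 64 the genotype effect in striatum was called for 3692 genes against 5704. With a library left out, 7 to 15 related genes were lower and 0 to 3 higher in cortex, the latter 1 without control mice 58, 63 or 64 and 0 without Trrap-FBΔ mouse 60, and 1 to 2 were higher in striatum, with 2 without control mouse 58 or 65. The joint fit of all libraries called 1 higher in cortex and 2 in striatum, and no filter called 2 in striatum. The cause of these moves was not tested.

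Of 40 single-gene calls examined, 23 held in every alternative run for them, among them Slitrk4, Lrrtm2 and Lrrtm4 in both tissues and the tissue effects of Nlgn1, Nlgn2, C1ql2, Cbln2 and Cbln4. Both counts include the tissue effect of C1ql3, which is not read as a test here. The other 17 were lost at least once: Cask in striatum in 11 of 16 alternatives, Slitrk5 in cortex in 9 of 15 and Nxph2 in cortex in 8 of 15, which were the most often lost of those named here. Genes with no call changed sign: Grik2 in striatum was -0.0066 with sex as a covariate, -0.0353 without control mice 58 and 64, and -0.0573 to 0.0401 with a library left out. Cbln1 in striatum was -0.0124 (without control mouse 64) to 0.2015, and Fezf2 in cortex, which turned negative without control mouse 55 or 58 or Trrap-FBΔ mouse 57, was -0.0404 to 0.0876. The mouse as a replicate block changed no call of a tissue effect among the members. Depth limits C1ql2 in cortex most, with 65 reads in its lowest library.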

Other observations

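Striatal projection neuron genes differed between cortex and striatum in opposite directions in control mice 58 and 64. Ppp1r1b was at 178 CPM in the cortex and 19.4 CPM in the striatum of control mouse 58, and at 58.5 and 300 CPM in those of control mouse 64. Drd1, the dopamine receptor of direct-pathway neurons, was at 38.0 and 7.84 CPM in mouse 58 and at 18.1 and 59.9 CPM in mouse 64. The summed list was at 664 and 217 CPM in mouse 58, 270 and 1117 CPM in mouse 64, and 695 and 491 CPM in mouse 63. In the 4 Trrap-FBΔ mice the sums were 310 to 418 CPM in cortex and 331 to 542 CPM in striatum.

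C1ql4, a relative of C1ql3, was too low to test in cortex. In striatum it was at 0.86 to 5.05 CPM in control and 5.11 to 10.3 CPM in Trrap-FBΔ mice, and did not pass the test (edgeR adjusted p = 0.0687).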
